A study of Mus musculus with 6 samples.

Results

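Tuft cell genes are described here: 10 genes of the chemosensory epithelial cell called the tuft cell, namely Dclk1, Trpm5, Gnat3, Avil, Il25, Hmx3, Tas1r3, Ptgs1, Alox5ap and Plcb2. They were listed by name, and each was read from its probe set with 1 gene symbol (the brightest one where a gene had several). Of the 10, 9 were measured, out of 19938 genes with such a probe set on the array. Ptgs1 is paired with no probe set in the annotation used and was not analysed here. The samples were medullary epithelial cells of the thymus, sorted from mice of 4 to 6 weeks by a gate of CD45-, Ly51int and MHC class II high. There were 3 Aire WT mice and 3 Aire KO mice (Aire-/-), all on a (B6xNOD)F1 background, each taken alone, and RNA went through 2 rounds of amplification before hybridisation to its own array. The gate would leave out tuft-like cells that carry CD45 or little MHC class II. In such bulk samples, fewer cells of a type and less RNA per cell cannot be told apart.

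Tuft cells sit singly in epithelia of the gut, airways and thymus. They sense luminal compounds through receptors and signalling proteins shared with taste cells: a receptor activates the G protein gustducin, phospholipase C releases calcium from stores, and the cation channel Trpm5 opens. The cells then release a cytokine, Il25, and lipid mediators made from arachidonic acid. The transcription factor Pou2f3 is required for their formation, and in the thymus they arise among the medullary epithelial cells.

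Values below are log2 RMA intensities, differences are the KO mean minus the WT mean, and each ± is an SD over 3 mice. A probe set's signal depends on its own probes, so levels are compared between mice and not between genes. The p-values are adjusted by the Benjamini-Hochberg method over all 13925 genes bright enough to test, and a gene is said to have been called at 0.05. On the 6 arrays the median intensity lay between 92.9 and 98.2, and correlations of log2 intensity across probe sets were 0.976 to 0.993. Aire itself gave 12.00, 11.92 and 11.99 in the WT mice and 12.38, 12.41 and 12.42 in the mice labelled KO, so this signal does not check the labels, which do not say what part of the gene was removed.

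All 9 measured genes passed the intensity filter, and none passed it on the arrays of 1 genotype alone. By limma 2 of the 9 rose in the mice labelled KO, Hmx3 and Tas1r3, and 1 fell, Dclk1. Over all genes tested, 12.0% rose and 14.1% fell (26.1% in all), so counts this small do not set the tuft cell genes apart. The groups did not overlap for 4 genes: KO lay above WT for Hmx3, and below it for Dclk1, Trpm5 and Avil. That was so for 22.0% (KO above) and 20.5% (KO below) of the genes tested. The median difference over the 9 genes was -0.33, beside 0.04 over all 19938 genes and 0.015 over those tested. Without KO replicate 1 it was -0.13, and without WT replicate 3 it was -0.21.

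**Figure D1:**
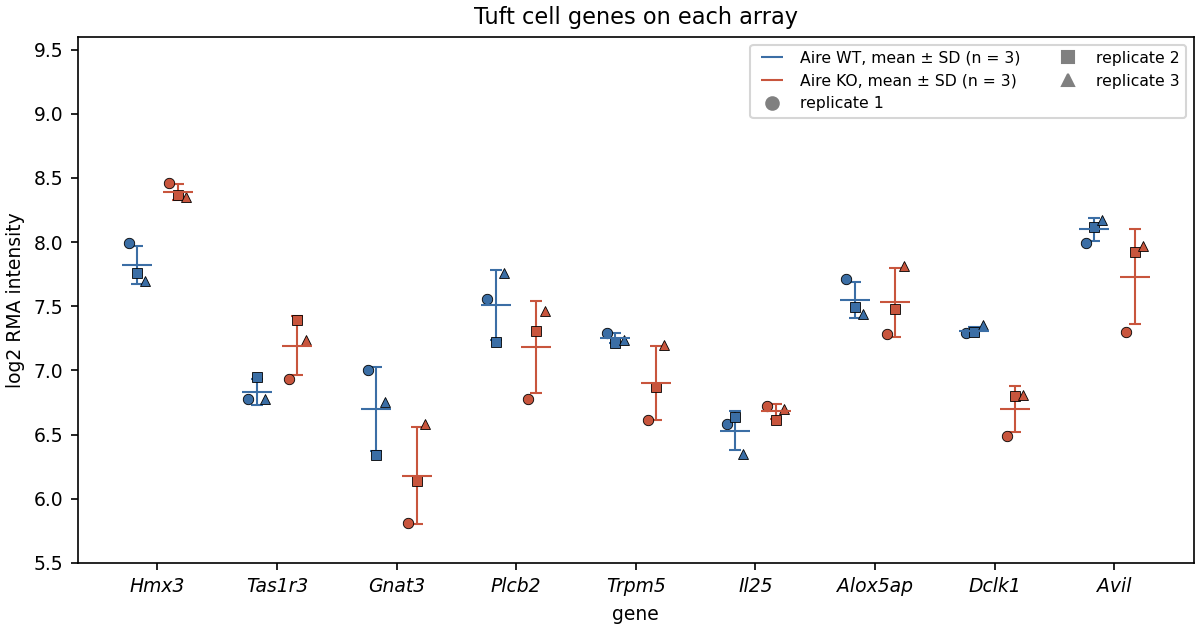
Log2 RMA intensity (vertical axis) of the 9 measured tuft cell genes on each array; circles, squares and triangles are replicates 1, 2 and 3, and the horizontal marks with bars are means ± SD of 3 Aire WT mice (blue) and 3 Aire KO mice (red). Hmx3 is higher in every KO mouse (8.35 to 8.46) than in any WT mouse (7.70 to 7.99), Dclk1 is lower (6.49 to 6.81 against 7.29 to 7.35), and KO replicate 1 is the lowest KO mouse for 7 of the 9 genes.

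The bases upstream of the annotated start are shown for the 3 genes that were called, and for Avil because its window holds the motif described next. Of the 10 listed genes, 8 have such an entry in the RefSeq table (GRCm38.p6), and Il25 and Alox5ap do not. Each line gives 250 bases 5′ to 3′ on the gene's own strand, ending at the base before the start. Capitals mark ATGCAAA on either strand, the first 7 letters of the octamer ATGCAAAT that POU family factors such as Pou2f3 recognise. The letters were chosen after the sequences had been seen. Dclk1 has 2 annotated starts and 1 probe set, and which of their transcripts that probe set reads was not checked.
Avil (chr10:127000459-127000708, plus strand): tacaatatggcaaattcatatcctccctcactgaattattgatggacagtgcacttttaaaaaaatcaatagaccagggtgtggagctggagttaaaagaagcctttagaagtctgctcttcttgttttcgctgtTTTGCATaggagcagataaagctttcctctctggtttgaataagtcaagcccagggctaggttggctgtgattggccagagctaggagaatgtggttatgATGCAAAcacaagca
Dclk1, first start (chr3:55242114-55242363, plus strand): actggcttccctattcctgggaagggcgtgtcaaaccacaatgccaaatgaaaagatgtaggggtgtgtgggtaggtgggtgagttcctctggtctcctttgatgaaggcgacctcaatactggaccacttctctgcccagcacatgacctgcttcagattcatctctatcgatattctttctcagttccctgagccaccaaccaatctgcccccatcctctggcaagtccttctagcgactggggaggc
Dclk1, second start (chr3:55461478-55461727, plus strand): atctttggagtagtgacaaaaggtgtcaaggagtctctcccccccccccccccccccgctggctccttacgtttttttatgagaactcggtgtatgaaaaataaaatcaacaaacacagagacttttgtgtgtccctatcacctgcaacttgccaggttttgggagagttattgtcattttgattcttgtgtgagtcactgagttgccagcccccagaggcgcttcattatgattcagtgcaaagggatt
Hmx3 (chr7:131542713-131542962, plus strand): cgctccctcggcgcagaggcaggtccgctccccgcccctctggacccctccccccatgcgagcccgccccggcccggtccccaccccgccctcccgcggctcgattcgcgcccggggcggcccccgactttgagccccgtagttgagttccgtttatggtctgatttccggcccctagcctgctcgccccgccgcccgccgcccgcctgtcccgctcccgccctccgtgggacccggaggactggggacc
Tas1r3 (chr4:155863354-155863603, minus strand): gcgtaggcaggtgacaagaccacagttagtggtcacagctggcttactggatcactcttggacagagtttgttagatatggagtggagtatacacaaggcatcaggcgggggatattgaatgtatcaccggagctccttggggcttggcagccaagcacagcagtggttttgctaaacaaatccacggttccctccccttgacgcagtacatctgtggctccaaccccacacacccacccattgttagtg

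The Avil sequence held ATGCAAA in 2 places but not the full octamer. The match on the gene's strand ran from 15 to 9 bases before the start, and the match on the opposite strand from 115 to 109 bases before it. Among 32851 upstream windows of the same length, 4.12% held ATGCAAA and 1.60% the full octamer, which includes it. The Dclk1, Hmx3 and Tas1r3 windows, and those of Trpm5, Gnat3, Plcb2 and Ptgs1, held neither. The Hmx3 window was 76.8% G and C, beside 42.0% for Avil, 52.4% for Tas1r3, and 52.4% and 46.8% for the first and second Dclk1 starts.

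Among the regulators, Hmx3, a homeobox transcription factor gene known for its part in inner ear and hypothalamus development, rose in the mice labelled KO. Its log2 intensity was 7.99, 7.76 and 7.70 in the WT mice and 8.46, 8.37 and 8.35 in the KO mice. Every KO mouse was above every WT mouse, and the KO mice differed little among themselves. The rise was 1.49-fold, from 7.82 ± 0.15 to 8.39 ± 0.06, a difference of 0.57 (SE 0.09, n = 3 per group, limma adjusted p = 0.0011). It kept its call under all 16 alternatives, with differences between 0.51 and 0.66 and adjusted p from 0.00054 to 0.0067. Its neighbour on chromosome 7, the related homeobox gene Hmx2, gave 7.73, 7.64 and 7.49 in WT and 7.78, 7.74 and 7.77 in KO. The Hmx2 groups did not overlap either, but the difference of 0.14 (95% interval -0.05 to 0.33, limma adjusted p = 0.25) was not called.

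Pou2f3, the regulator that tuft cells need, gave 7.81, 8.13 and 8.35 in the WT mice and 7.67, 8.12 and 8.08 in the KO mice. The groups overlapped, and the difference of -0.14 (95% interval -0.47 to 0.18, limma adjusted p = 0.51) was not called. It was 0.00 without KO replicate 1. Of 9 genes on the list of tuft cell regulators, all tested, 2 rose and 0 fell by limma. Over all genes tested, 12.0% rose and 14.1% fell. At an unadjusted p under 0.05, 3 were higher and 1 lower, beside 19.2% higher and 19.4% lower of all genes tested. Besides Hmx3, the other that rose was Pou2af1, a coactivator of POU factors best known in B cells, from 8.22 ± 0.06 to 8.61 ± 0.13 (SD, n = 3). The list's median difference was 0.03. Of 6 measured B cell markers, 3 were tested and all 3 rose by limma (Cd79b, Pax5 and Blk), beside 12.0% of all genes tested. The other 3 lay under the filter on all arrays, with differences below 0 (Ms4a1 -0.48, Cd22 -0.15 and Cd79a -0.11). The summed intensity of the 6 was 618 to 626 in WT and 724 to 740 in KO. Their part in the Pou2af1 rise was not tested.

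Among the taste pathway genes, Tas1r3 rose and the other listed members were not called. Tas1r3, the subunit shared by the sweet and umami receptors, gave 6.78, 6.95 and 6.78 in the WT mice and 6.93, 7.39 and 7.24 in the KO mice. KO replicate 1 lay within the WT range, so the groups overlapped. The rise was 1.28-fold, a difference of 0.35 (SE 0.12, n = 3 per group, limma adjusted p = 0.043). This call was lost when WT replicate 1 or 3 was left out (adjusted p = 0.10 for each), when KO replicate 2 (0.15) or 3 (0.13) was left out, and with no intensity filter (0.051). Over its 15 alternatives the adjusted p ran from 0.0088 to 0.15.

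Gnat3, the alpha subunit of gustducin, gave 7.0, 6.34 and 6.75 in the WT mice and 5.81, 6.14 and 6.58 in the KO mice. KO replicate 3 lay above WT replicate 2, and KO replicate 1 was under the intensity filter. The difference of -0.52 (SE 0.19, 95% interval -0.94 to -0.10, n = 3 per group, limma adjusted p = 0.065) was not called. It passed without WT replicate 2 (-0.70, adjusted p = 0.016) or without KO replicate 3 (-0.72, adjusted p = 0.018), and it was -0.34 without KO replicate 1.

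Plcb2, the phospholipase C of taste signalling, gave 7.56, 7.22 and 7.76 in the WT mice and 6.78, 7.31 and 7.46 in the KO mice, with overlapping groups. Its difference of -0.33 (95% interval -0.71 to 0.05, limma adjusted p = 0.18) was not called. Trpm5, the channel at the end of the cascade, gave 7.29, 7.21 and 7.24 in the WT mice and 6.61, 6.87 and 7.20 in the KO mice. The WT mice agreed closely, while the KO mice ran from far below them to just under the lowest WT mouse. The Trpm5 difference of -0.35 (SE 0.13, 95% interval -0.63 to -0.08, n = 3 per group, limma adjusted p = 0.060) was not called with all arrays. It was -0.51 without KO replicate 3 (adjusted p = 0.0088) and -0.21 without KO replicate 1 (adjusted p = 0.23).

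On the taste transduction list 13 genes were measured and 10 tested, with a median of 0.15 over the 13. By limma 2 of the 10 rose and 0 fell, beside 12.0% and 14.1% of all genes tested. At an unadjusted p under 0.05, 3 of the 10 were higher and 2 lower (Gnat3 and Trpm5), again beside 19.2% and 19.4% of all genes tested. Beside Tas1r3, the gene that rose was Trpm4, a channel related to Trpm5, from 6.67 ± 0.11 to 6.99 ± 0.14 (SD, n = 3, limma adjusted p = 0.032). That call was lost when WT replicate 2 (adjusted p = 0.063) or 3 (0.081) or KO replicate 1 (0.14) or 2 (0.051) was left out. Gng13 and Gnb3, which encode the gamma and beta partners of gustducin, stood at 0.22 and 0.19, and the calcium release channel gene Itpr3 at -0.02, none of them called. The other taste receptor subunit genes, Tas1r1 and Tas1r2, were too dim to test. All 34 bitter taste receptor genes (Tas2r) were also too dim, 32 of them under the filter on every array. Their KO minus WT differences lay between -0.36 and 0.33 with a median of 0.12.

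**Figure D2:**
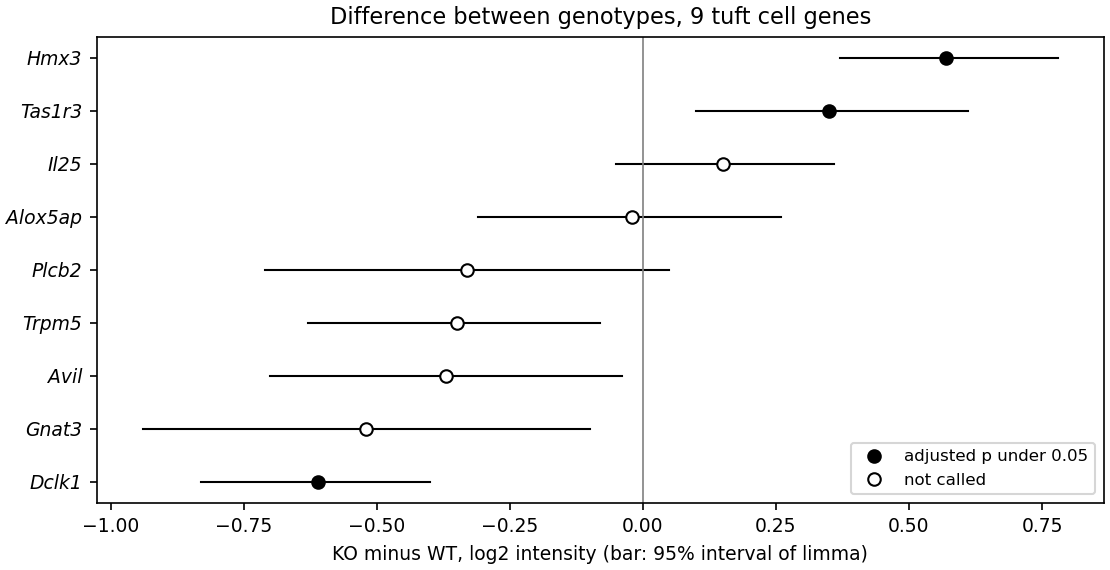
KO minus WT difference in log2 intensity (horizontal axis) for each of the 9 measured tuft cell genes (vertical axis), with the 95% interval of limma; filled points passed the adjusted threshold of 0.05 and open points did not. The differences run from -0.61 (Dclk1) to 0.57 (Hmx3), and the intervals of Trpm5, Avil and Gnat3 lie below 0 although these genes were not called.

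Neither of the measured members that serve the release of cytokine and leukotrienes, Il25 and Alox5ap, was called. Il25, the cytokine that activates innate lymphoid cells, gave 6.58, 6.64 and 6.35 in the WT mice and 6.72, 6.61 and 6.70 in the KO mice. Its groups overlapped, with a difference of 0.15 (95% interval -0.05 to 0.36, limma adjusted p = 0.26). Alox5ap, which presents arachidonic acid to the lipoxygenase Alox5 for leukotriene synthesis, gave 7.71, 7.49 and 7.44 in WT and 7.28, 7.48 and 7.81 in KO. The KO mice enclosed the WT range, and the difference was -0.02 (95% interval -0.31 to 0.26, limma adjusted p = 0.92). Its sign turned without KO replicate 1 (0.10) and without WT replicate 1 (0.06).

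On the wider list of eicosanoid synthesis, 14 of 16 measured genes were tested. Of the 14, 1 rose and 3 fell by limma, beside 12.0% and 14.1% of all genes tested. The median was -0.02 over the 16. The 3 that fell were Alox15, a lipoxygenase, and the prostaglandin D synthase genes Ptgds and Hpgds. Alox15 gave 11.37, 11.39 and 11.62 in WT and 10.72, 10.56 and 10.66 in KO, Ptgds fell by 0.66 and Hpgds by 0.58 (SE 0.09, 0.09 and 0.10, limma adjusted p = 7.2e-05, 0.00034 and 0.0017). The groups of these genes did not overlap, and all of them kept their call under all 16 alternatives. Hpgds is one of the enzymes by which tuft cells and mast cells make prostaglandin D. Of 8 mast cell and basophil markers 3 were tested, and of these Mcpt4 and Tpsb2 fell and Kit rose. Cpa3, Mcpt8, Fcer1a, Ms4a2 and Cma1 were under the filter on every array, and Mcpt4 passed it in WT mice alone. The summed intensity of the 8 was 1083 to 1285 in WT and 1228 to 1261 in KO. Without Kit, the one that rose, the sum of the other 7 was 348 to 366 in WT and 228 to 246 in KO. Each of the 7 had a lower mean in KO, though the groups of Mcpt8 and Fcer1a overlapped. Kit was set aside with its rise in view, so the direction of this second sum is not separate support. Their part in the fall of Hpgds was not tested.

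The gene that rose on that list was Ptgs2, the inducible cyclooxygenase, from 12.54 ± 0.09 to 12.82 ± 0.05 (SD, n = 3, limma adjusted p = 0.028). Leaving out any 1 array other than WT replicate 1 took the call away, with adjusted p between 0.059 and 0.078. The leukotriene genes Alox5 and Ltc4s did not pass, at 0.15 and 0.26.

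In the circuit of type 2 cytokines that tuft cells feed, 7 of 11 genes were tested. By limma 1 of the 7 rose and 1 fell, beside 12.0% and 14.1% of all genes tested. The median was 0.07 over the 11. Il17ra, one chain of the Il25 receptor, rose from 8.30 ± 0.05 to 8.66 ± 0.15 (SD, n = 3, limma adjusted p = 0.014), and its adjusted p was 0.069 without KO replicate 1. The other chain, Il17rb, stood at -0.17 and was not called. Il33, an alarmin of epithelium and stroma, gave 6.43, 6.09 and 6.00 in WT and 5.13, 5.49 and 5.24 in KO, and fell by 0.89 (SE 0.13, limma adjusted p = 0.00037). It passed the intensity filter in the WT mice alone, so it could only fall. Chat, the enzyme of acetylcholine synthesis, and Sucnr1, the succinate receptor, were under the filter on all 6 arrays, as were Tslp and Ffar3.

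Among the structural genes, Dclk1, a microtubule-associated kinase widely used as a tuft cell marker, fell. It gave 7.29, 7.30 and 7.35 in the WT mice and 6.49, 6.80 and 6.81 in the KO mice. The WT mice were almost level, and every KO mouse was lower. The fall was 1.53-fold, from 7.31 ± 0.03 to 6.70 ± 0.18, a difference of -0.61 (SE 0.10, n = 3 per group, limma adjusted p = 0.00092). It kept its call under all 16 alternatives, with differences between -0.67 and -0.49, and was -0.51 without KO replicate 1.

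Avil, the actin-binding villin relative whose upstream bases hold ATGCAAA in 2 places, gave 7.99, 8.12 and 8.17 in the WT mice and 7.30, 7.92 and 7.97 in the KO mice. KO replicates 2 and 3 lay just under the lowest WT mouse, and KO replicate 1 stood well apart. The difference of -0.37 (SE 0.15, 95% interval -0.70 to -0.04, limma adjusted p = 0.095) was not called and was -0.16 without KO replicate 1. Any bearing of the ATGCAAA matches on Avil expression was not tested.

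Of 20 measured genes on the list of tuft cell structure and signalling, 19 were tested. By limma 1 rose and 3 fell, beside 12.0% and 14.1% of all genes tested. The median was -0.08 over the 20. At an unadjusted p under 0.05, 1 of the 19 was higher and 7 were lower, beside 19.2% and 19.4% of all genes tested. Beside Dclk1, the genes that fell were Kctd12, an auxiliary subunit of GABA-B receptors, and Nrep, by 0.36 each (SE 0.09 for both, limma adjusted p = 0.012 and 0.011). Kctd12 had an adjusted p of 0.057 without KO replicate 1 and 0.060 without KO replicate 3. The gene that rose was Inpp5d, the inositol phosphatase SHIP of blood cells, from 8.26 ± 0.22 to 8.97 ± 0.06 (SD, n = 3, limma adjusted p = 0.00065). Rgs13, a regulator of G protein signalling, gave 6.61, 6.44 and 6.57 in WT and 5.69, 6.14 and 6.49 in KO and was not called (adjusted p = 0.069). It is named because KO replicate 1 is again the lowest and KO replicate 3 the highest of the KO mice, and it was chosen after its values were seen. Vil1, the villin of the brush border, stood at -0.34 and was not called.

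**Figure D3:**
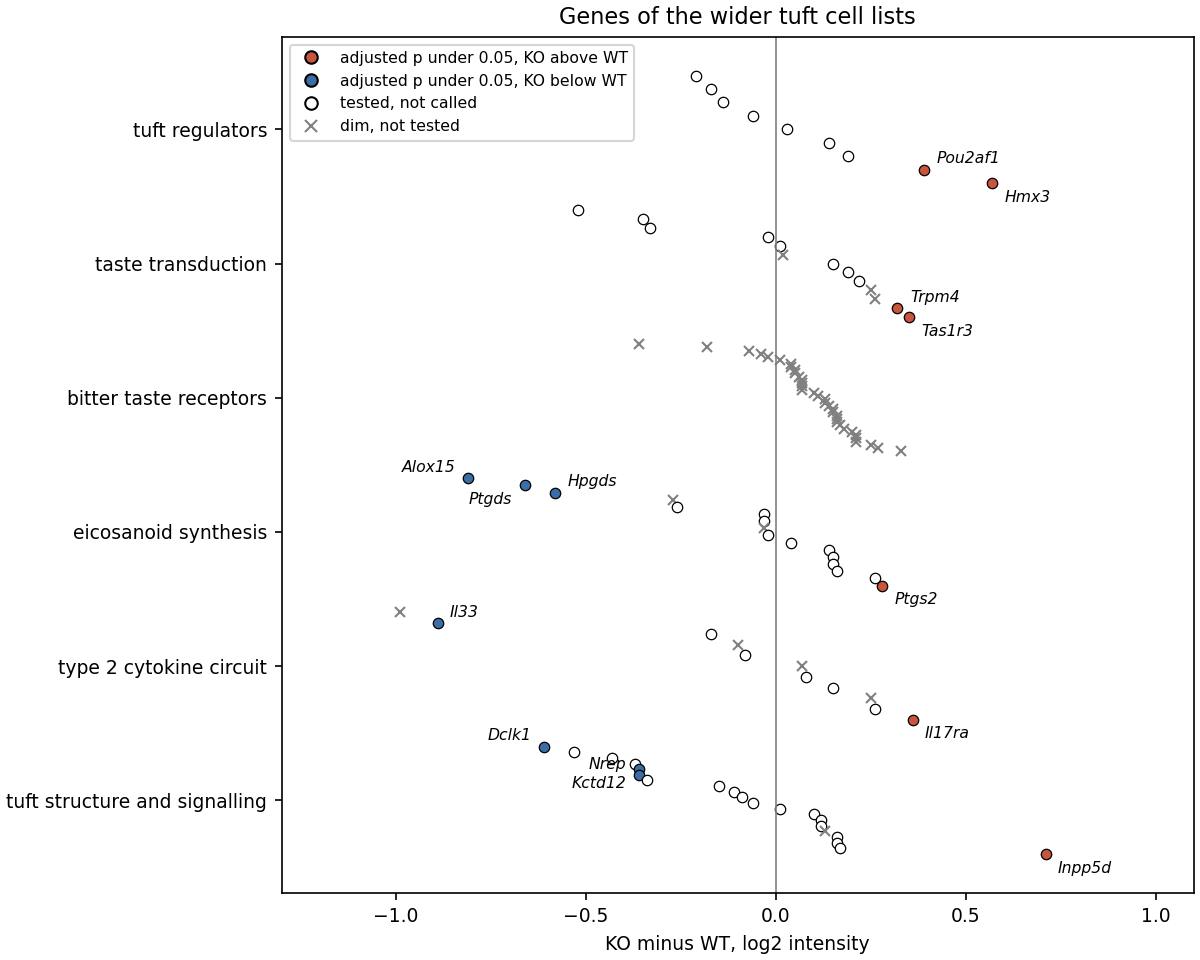
KO minus WT difference in log2 intensity (horizontal axis) for every measured gene of 6 lists of tuft cell and related genes (vertical axis, genes sorted within a list); filled red and blue points were called higher and lower in KO, open points were tested and not called, and crosses were too dim to test. Called genes lie on both sides of 0 in the eicosanoid, type 2 cytokine and structural lists, and all 34 bitter taste receptor genes are crosses.

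Several of these genes are also expressed in leukocytes, which the CD45- gate is meant to remove, among them Alox5ap, Plcb2, Inpp5d and Fyb. Of 11 measured T cell markers 8 were tested. By limma 1 fell (Cd3g) and 0 rose, with 2 lower and 0 higher at an unadjusted p under 0.05. Over all genes tested, 14.1% fell and 12.0% rose, and 19.4% were lower and 19.2% higher at that unadjusted p. Cd3d, Rag2 and Cd28 were under the filter on every array. The summed intensity of the 11 was 1088 to 1810 in WT and 818 to 1085 in KO. Of 12 dendritic cell and macrophage markers 9 were tested, and 5 fell (Ptprc, Csf1r, Adgre1, Itgam and C1qa) and 1 rose (Cd68). Itgax, Cd209a and Fcgr1 were under the filter on every array. The sum of the 12 was 3842 to 4288 in WT and 3620 to 3701 in KO. Lyz2, the brightest of them (11.33 in WT and 11.27 in KO, not called), weighs heavily in that sum. Adgre1 and Itgam, which fell 2.99-fold and 2.45-fold, passed the filter in WT mice alone. Of 5 platelet markers 4 were tested and 1 fell (Pf4), and the sum was 504 to 542 in WT and 422 to 462 in KO. Markers of the epithelium differed too. Of 10 medullary markers, all tested, 3 fell (Krt5 -0.84, Krt14 -0.44 and Epcam -0.37) and 1 rose (Aire) by limma. Of 8 cortical markers 7 were tested, and 3 rose (Prss16, Ccl25 and Tbata) and 2 fell (Enpep and Ctsl). The part of any of these cells in the differences above was not tested.

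The tuft cell genes shared a position among the KO mice that the list did not use. KO replicate 1 was the lowest KO mouse for 7 of the 9 genes (all but Hmx3 and Il25), as for 36.3% of the genes tested. For 6 of the 9 (Dclk1, Trpm5, Gnat3, Avil, Alox5ap and Plcb2) it was the lowest and KO replicate 3 the highest, as for 12.9% of the genes tested. The summed intensity of all 9 genes was 1245 in KO replicate 1, 1473 in KO replicate 2 and 1587 in KO replicate 3, beside 1434 to 1556 in the WT mice. KO replicate 1 alone lay below the WT range of that sum, and KO replicate 3 lay above it. Hmx3, which rose and was the brightest of the 9 in KO (mean 8.39), weighs heavily in that sum. The sum therefore does not show that KO replicates 2 and 3 matched WT in the genes with lower KO means. Gene by gene, every KO mouse lay below every WT mouse for Dclk1, Trpm5 and Avil, and above for Hmx3. KO replicate 1 was also the lowest KO mouse for 14 of the 20 genes of tuft cell structure and signalling, which include Dclk1 and Avil, but for 2 of the 9 regulators. It was lowest for 7 of 13 taste transduction genes, which include Tas1r3, Gnat3, Plcb2 and Trpm5, and for 18 of the 34 dim bitter receptor genes. Counts as uneven occurred in other lists. KO replicate 3 was the lowest KO mouse for 7 of 9 fibroblast and endothelial markers and for 6 of 8 mast cell and basophil markers. Genes read on the same 3 arrays are not separate tests.

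For the tuft cell genes the spread between mice was wider in KO than in WT. It reflects the same order of the KO mice and is not a separate observation. The SD of 3 mice was larger in KO than in WT for 7 of the 9 genes, beside 42.6% of the genes tested. The median SD was 0.27 in KO and 0.14 in WT for the 9 genes, and 0.092 and 0.11 for all genes tested. Beside this, KO replicate 1 was the lowest KO mouse for 4 of 10 medullary epithelial markers (Epcam, Krt5, Fezf2 and Aire) and for 2 of 11 T cell markers. It was the highest KO mouse for 2 of the 10 medullary markers. The sum of the medullary markers was 31557 in KO replicate 1 and 30806 and 32700 in the other KO mice, and that of the T cell markers 951 against 1085 and 818. H2-Aa, the brightest medullary marker (13.69, 13.57 and 13.64 in KO replicates 1, 2 and 3), weighs heavily in the medullary sum. Krt5 gave 9.75, 10.04 and 10.26 in the same mice. The labels give no batch or scan date for KO replicate 1, and whether this mouse held fewer tuft cells was not tested.

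**Figure D4:**
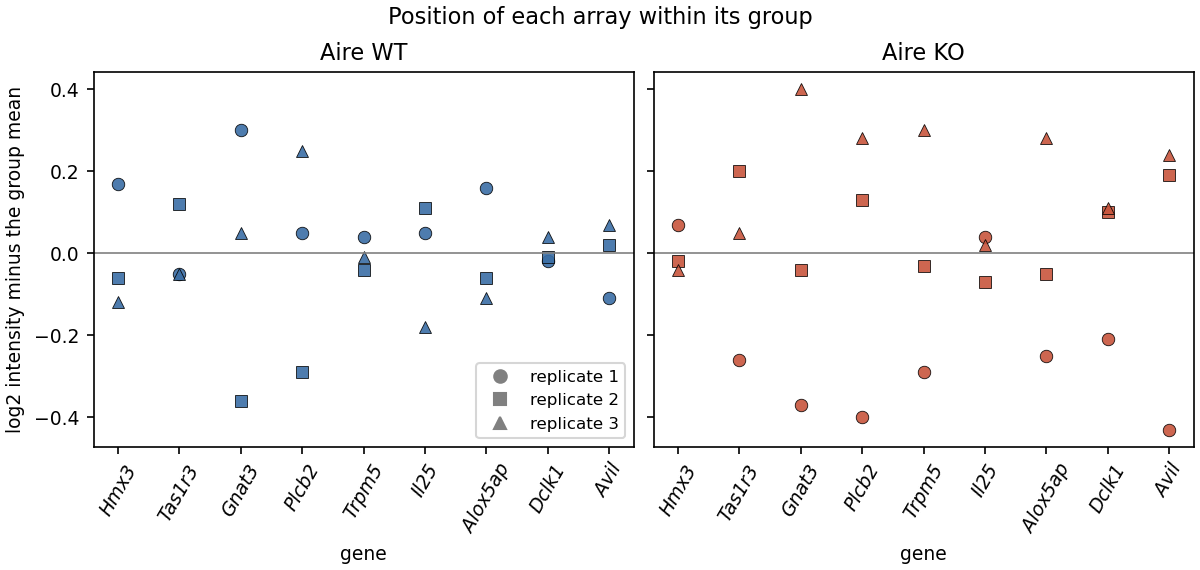
Log2 intensity minus the mean of the same group (vertical axis) for the 9 measured tuft cell genes (horizontal axis) in the 3 Aire WT mice (left) and the 3 Aire KO mice (right); circles, squares and triangles are replicates 1, 2 and 3. Among the KO mice, replicate 1 is lowest for 7 of the 9 genes and replicate 3 is highest for 6, while no WT mouse is lowest for more than 4.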

How the data were processed

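Per the labels' protocols, sorted cells went into Trizol and their RNA was amplified and biotinylated. The authors deposited linear intensities per probe set from RMA, which the submitters' processing notes name without a version. RMA corrects background, equalises the distributions of the arrays and combines a probe set's probes by median polish. The build is not given in the sources used here. There is no detection call, and folds of dim genes are compressed by background.

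The values were taken to log2 with no offset (pseudocount 0). Each gene was read from its 1-symbol probe set of highest mean, from 35512 probe sets of which 21789 have 1 symbol in the platform annotation. Testing required a log2 value over 5.97, the 40th percentile, on 3 or more of the 6 arrays. The test was limma 3.58.1 in R 4.3.3 (lmFit and eBayes, two-sided, genotype only), checked on simulated data, and it gave the SE and 95% intervals. Plots were made in matplotlib 3.10.9.

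The genes and lists were chosen with earlier results of these data known. Named genes are the 10 listed, Pou2f3, Hmx2 and up to 6 called genes of each list; any further gene was picked with its values in view. Alternatives changed the filter, the normalization, the offset (32), how probe sets stand for a gene, the prior variance, the array weights, the replicate block and the arrays included. Replicate numbers were not treated as pairs in the main fit. Correlations of same-numbered deviations from the group means were -0.02, -0.21 and -0.06. With 3 mice per group these values cannot settle whether the mice were paired.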

Additional observations from a re-analysis of the deposited data

How the results depend on the processing

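The number of tuft cell genes that rose was 2 at the reported settings, and 1 with no intensity filter or with the filter at the 60th percentile. It ran from 1 to 2 with each array left out. The number that fell was 1, and 3 with the replicate number as a replicate block, which added Gnat3 (adjusted p = 0.041) and Avil (0.037) and took the call from Ptgs2 (0.055). It ran from 1 to 3 with each array left out. Over all genes, 1676 rose and 1963 fell. With each array left out, the rises numbered 1052 to 1547 and the falls 1364 to 1877, the fewest of both without KO replicate 1. The median difference of the 9 genes was -0.47 to -0.13 with each array left out. The Alox5ap difference ran from -0.17 to 0.10 in those fits, and that of Pou2f3 from -0.29 to 0.00. At the 60th percentile Gnat3, Il25 and Tas1r3 were not tested. The median over all genes lay between 0.024 and 0.052 under every setting run, so no scaling tried moved it by over 0.1. Alternatives for the wider lists were added after seeing the data. Depth has no meaning for arrays, and 3 mice per group limit the precision.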
